A study of Mus musculus with 6 samples.

Results

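Kinesins are motor proteins that walk along microtubules or take their ends apart, and a group of them works almost only during cell division. The 10 mitotic kinesin genes *Kif2c*, *Kif4*, *Kif11*, *Kif14*, *Kif15*, *Kif18b*, *Kif20a*, *Kif20b*, *Kif22* and *Kif23* were chosen by name from the 27179 genes of the count table, and their mRNA was read in 6 RNA-seq libraries of germinal center (GC) B cells. The choice was made with earlier results of these data known. All 10 were among the 11005 genes that passed the filter on low values. In CPM (counts scaled to library size), each of the 10 was higher in the WT than in the *Il21r*-/- library on days 7, 10 and 14, and the difference was smallest on day 7 for each of them.

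Mitotic kinesins separate the spindle poles, shorten microtubules at kinetochores and poles, hold chromosome arms at the spindle middle, and build the midzone and midbody through which a cell completes cytokinesis. Their mRNAs are periodic: in cycling cells they accumulate in G2 and mitosis, and are low in G1. GC B cells are among the fastest dividing cells of the body. They divide mainly in the dark zone of the GC, and interleukin 21 from follicular helper T cells is one of the signals that act on them.

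The libraries came from spleens of C57BL/6 mice given NP-KLH, a hapten on a protein carrier, with alum into the peritoneum. There was 1 WT and 1 *Il21r*-/- library for each of 3 times, days 7, 10 and 14. The *Il21r*-/- line carries its mutation in every cell and had been backcrossed to C57BL/6. By the methods of the study, all experiments but a nucleotide-labelling course used irradiated Ly5.1 hosts that had received WT or *Il21r*-/- bone marrow weeks earlier. The methods of the sequencing and the labels name only WT and *Il21r*-/- mice. In such hosts the receptor is missing from cells derived from the marrow, T cells as well as B cells, and not from the rest of the host. Cells were sorted as NP-binding, IgG1-switched B220+CD38- cells without CD138, IgM, IgD or Gr1. The labels give 1 mouse per library, whereas the methods of the study describe more mice than libraries, from more than 1 immunization. A supplementary legend of the study names 3 mice of each genotype for the day 7 sort. Whether their cells went into 1 library is not stated, and no such count is given for days 10 and 14. How the libraries were divided between immunizations is not stated either. The libraries of a genotype differed in day, and the error of every test is the scatter of 3 libraries per genotype around a model. Library totals were 21353438 to 27435124 counts.

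*Il21r* itself (chr7:125603252-125634397) was read at 346, 263 and 247 CPM in WT and at 106, 128 and 113 CPM in *Il21r*-/- libraries on days 7, 10 and 14 (log2 fold change of WT over *Il21r*-/- over 3 days 1.29 ± 0.132 SE, adjusted p = 0.00137). It was lower in each *Il21r*-/- library, and transcripts of the targeted gene were still present there. All 9 GC B cell markers were expressed, with a summed level of 7560 to 9100 CPM in WT and 7910 to 10000 CPM in *Il21r*-/- libraries. Among them *Cd79a* had a log2 fold change of -0.34 ± 0.113 and *Mef2b* one of 0.35 ± 0.128 (SE, adjusted p = 0.129 and 0.164). Of 7 T cell markers, 6 stayed under 1 CPM in every library; the other, *Lck*, reached 80.8 to 121 CPM, with summed levels of 86.1 to 122 CPM in WT and 81.9 to 117 CPM in *Il21r*-/- libraries. Markers of other cell types summed in WT and *Il21r*-/- libraries to 8.42 to 14.2 and 12.2 to 19.9 CPM for 7 myeloid genes, and to 9.92 to 19 and 4.8 to 33.6 CPM for 5 erythroid genes.

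The promoters of the mitotic kinesins are shown because genes of G2 and mitosis often carry the cell cycle genes homology region (CHR), the letters TTTGAA, at their start. It is bound by the DREAM and MuvB complexes, which hold such genes silent in G0 and G1 and, with B-MYB and FOXM1, activate them later. Many of these promoters also hold CCAAT boxes, the binding letters of NF-Y. RefSeq promoters (GRCm38.p6, 250 bases before to 50 after an annotated start) were given for 9 of the 10 genes, and *Kif20a* was not among them. Both motifs were searched on both strands, where TTTGAA reads TTCAAA and CCAAT reads ATTGG, and the motifs share no bases with each other in the stretches shown. Matches are in capitals, and each line reads 5′ to 3′ on the strand of the gene.
Kif11, chr19:37376322-37376411, plus strand: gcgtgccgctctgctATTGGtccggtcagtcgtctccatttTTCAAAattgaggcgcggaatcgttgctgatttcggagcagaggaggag
Kif15, chr9:122951021-122951110, plus strand: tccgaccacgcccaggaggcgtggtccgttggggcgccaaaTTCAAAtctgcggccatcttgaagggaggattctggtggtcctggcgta
Kif22, chr7:127042391-127042480, minus strand: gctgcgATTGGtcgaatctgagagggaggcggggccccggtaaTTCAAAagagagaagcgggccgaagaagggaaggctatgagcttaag
Kif18b, chr11:102925095-102925184, minus strand: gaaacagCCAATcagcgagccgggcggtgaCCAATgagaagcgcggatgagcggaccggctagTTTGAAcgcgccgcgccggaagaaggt
Kif23, chr9:61946770-61946859, minus strand: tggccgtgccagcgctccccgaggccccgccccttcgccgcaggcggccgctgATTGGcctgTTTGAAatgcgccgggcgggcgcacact
Kif20b, chr19:34922298-34922387, plus strand: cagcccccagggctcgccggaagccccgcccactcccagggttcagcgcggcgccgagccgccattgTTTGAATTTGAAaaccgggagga
Kif4, chrX:100626005-100626094, plus strand: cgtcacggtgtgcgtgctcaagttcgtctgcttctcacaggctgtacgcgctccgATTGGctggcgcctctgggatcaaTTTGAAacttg
Kif2c, chr4:117178843-117178902, minus strand: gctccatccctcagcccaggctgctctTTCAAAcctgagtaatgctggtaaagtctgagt
Kif14, chr1:136467598-136467657, plus strand: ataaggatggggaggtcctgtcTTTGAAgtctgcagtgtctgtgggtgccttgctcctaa

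TTTGAA was found in all 9 promoters, beside 17.9% of all 32851 promoters in the table and 12.4% of the 10781 promoters of genes tested here. In 7 of the 9 it lay between 60 bases before and 30 bases after the start, a stretch chosen after the matches had been seen, in which 4.62% of all promoters and 2.87% of those of tested genes had it. The matches of *Kif11*, *Kif15* and *Kif22* began 19, 19 and 17 bases before the start. Those of *Kif18b*, *Kif23* and *Kif4* began at bases 4, 3 and 20 after it, and *Kif20b* held a pair in direct succession, at bases 8 and 14. *Kif2c* and *Kif14*, whose matches lay at positions -103 and -228, were the genes whose tabulated start was far inside the gene, 3852 and 1547 bases from its outer edge, so these stretches belong to an inner start. CCAAT was found in 6 of the 9 promoters, those of *Kif4*, *Kif11*, *Kif14*, *Kif18b*, *Kif22* and *Kif23*, beside 37.4% of all promoters and 38.8% of those of tested genes. The same 6 held both motifs, as did 6.95% of all promoters. These are matches of letters and were not measured as binding.

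**Figure D1:**
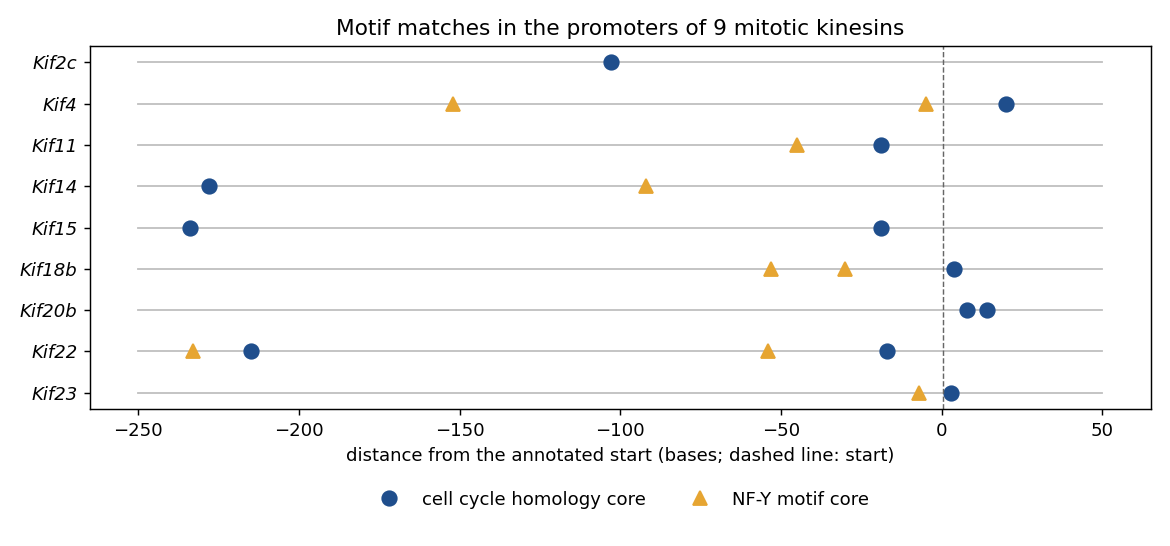
Each line is the promoter of 1 mitotic kinesin gene, drawn from 250 bases before to 50 bases after the annotated start; circles mark the first base of a match of the CHR core and triangles that of a CCAAT box, on either strand. All 9 lines carry a circle, and on 7 of them 1 or more lies between 60 bases before and 30 bases after the start; 6 lines carry a triangle.

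Levels per gene length (RPKM, counts scaled to the length of the gene and the size of the library) spread widely among the 10 genes. In WT libraries the chromosome-binding motor *Kif22* was the highest, with 65.4 ± 8.92 RPKM (SD, n = 3), and its lowest WT library lay above the highest of the next gene. *Kif23* followed with 38.2 ± 4.74 RPKM, *Kif11* with 32.7 ± 6.62, *Kif2c* with 28.3 ± 4.85 and *Kif20a* with 27.7 ± 3.72 RPKM. The WT ranges of each neighbouring pair of these 4 overlapped. *Kif18b* was at 16.7 ± 2.28 RPKM and stood apart from the genes above and below it. *Kif4* (8.59 ± 2.75), *Kif15* (6.04 ± 2.44), *Kif20b* (3.02 ± 1.13) and *Kif14* (2.11 ± 0.604 RPKM) were the lowest, and the ranges of neighbours among these overlapped. In *Il21r*-/- libraries the means ran from 1.58 ± 0.346 RPKM for *Kif14* to 49.7 ± 2.26 RPKM for *Kif22*. The least counted gene, *Kif20b*, had 214 to 499 counts per library.

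Summed over the 10 genes, the WT libraries held 619.2, 862.1 and 835.8 CPM on days 7, 10 and 14, and the *Il21r*-/- libraries 545.6, 634.2 and 530.2 CPM. The sum was lowest on day 7 in WT and on day 14 in *Il21r*-/-, and the WT libraries of days 10 and 14 lay above every *Il21r*-/- library. In RNA of whole sorted populations, fewer dividing cells and less mRNA per dividing cell cannot be told apart.

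**Figure D2:**
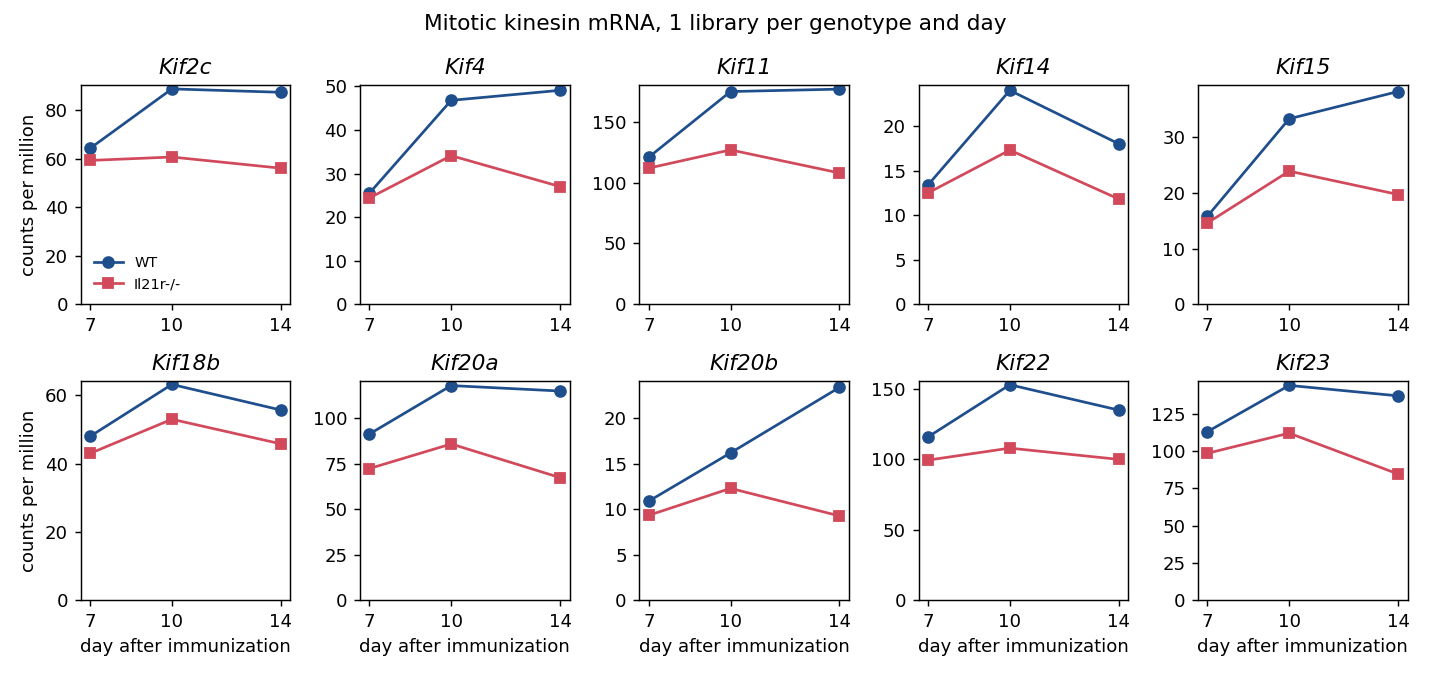
Each panel shows 1 mitotic kinesin gene, with the day after immunization on the horizontal axis and CPM from 0 on the vertical axis; circles are WT and squares *Il21r*-/- libraries, 1 library per point. The circle lies above the square on each day in each panel, and the points of a gene are closest on day 7.

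The first group of motors pushes the spindle poles apart. *Kif11* (chr19:37376382-37421863), the plus-end motor that slides antiparallel microtubules and makes the spindle bipolar, was at 121, 175 and 177 CPM in WT and at 112, 127 and 108 CPM in *Il21r*-/- libraries on days 7, 10 and 14. Its WT level of day 7 lay just under the *Il21r*-/- level of day 10, so the genotypes overlapped by that pair of libraries only. The log2 fold change of WT over *Il21r*-/- was 0.43 ± 0.143 over 3 days and 0.71 ± 0.272 on day 14 (SE, adjusted p = 0.126 and 0.174). *Kif15* (chr9:122951081-123018733), which can take over pole separation from *Kif11*, was at 15.8, 33.3 and 38.2 CPM in WT and at 14.6, 23.9 and 19.7 CPM in *Il21r*-/- libraries. In WT it had the steepest course of the 10, with day 14 above day 7 by 1.27 on the log2 scale, against 0.43 in *Il21r*-/-. Its log2 fold change was 0.52 ± 0.23 over 3 days and 0.96 ± 0.416 on day 14 (SE, adjusted p = 0.237 and 0.293).

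Depolymerizing kinesins peel tubulin off microtubule ends. *Kif2c* (chr4:117159633-117182624), the centromere-bound depolymerase that frees wrongly attached microtubules, was at 64.3, 88.8 and 87.4 CPM in WT and at 59.3, 60.7 and 56.1 CPM in *Il21r*-/- libraries. The *Il21r*-/- libraries hardly differed between days, and every WT library lay above all of them. Over 3 days its log2 fold change was 0.44 ± 0.13 (SE, adjusted p = 0.0904). *Kif18b* (chr11:102905518-102925134), which limits the length of astral microtubules, was at 48, 63.2 and 55.7 CPM in WT and at 43, 53 and 45.8 CPM in *Il21r*-/- libraries. It had the smallest genotype difference of the 10, with a log2 fold change of 0.23 ± 0.132 over 3 days (SE, adjusted p = 0.356), and *Il21r*-/- levels at 82.2 to 89.6% of WT on each day.

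Chromokinesins bind chromatin and push chromosome arms. *Kif4* (chrX:100626065-100727271), which also acts on the central spindle, was at 25.5, 46.8 and 49.1 CPM in WT and at 24.4, 34.1 and 27 CPM in *Il21r*-/- libraries. Its *Il21r*-/- level was 95.7% of WT on day 7, the closest of the 10 genes, and 55% on day 14. *Kif22* (chr7:127027729-127042467), which pushes chromosome arms away from the poles, was at 116, 153 and 135 CPM in WT and at 99.5, 108 and 100 CPM in *Il21r*-/- libraries. All of its WT libraries lay above all *Il21r*-/- libraries (log2 fold change 0.39 ± 0.116 SE, adjusted p = 0.0901). It lies 1.39 Mb from *Il21r* on the same chromosome, so its value cannot be told apart from an effect of sequence linked to the targeted locus.

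The last 4 genes act in the midzone and in cytokinesis. *Kif23* (chr9:61917277-61946810), the motor of centralspindlin, was at 113, 144 and 137 CPM in WT and at 98.5, 112 and 84.6 CPM in *Il21r*-/- libraries. *Kif20a* (chr18:34624624-34633277), which carries the chromosomal passenger complex with Aurora B to the midzone, was at 91.4, 118 and 115 CPM in WT and at 72.4, 85.9 and 67.4 CPM in *Il21r*-/- libraries. In both genes each WT library lay above every *Il21r*-/- library, though *Kif23* of WT day 7 and *Il21r*-/- day 10 nearly met. *Kif20a* had the lowest p of the 10 over 3 days (log2 fold change 0.52 ± 0.135 SE, adjusted p = 0.0609). Its span shares 4930 bases with *Cdc23* and 240 with *Brd8*. Reads of any shared exons cannot be told apart, since the strand setting of the counting is not stated. *Kif4*, *Kif11*, *Kif14* and *Kif15* overlap 5 further RefSeq genes that have no row in the count table, with 62763 bases shared by the spans of *Kif4* and *Gm52438*. All these overlaps are of whole gene spans, introns included, and shared exons were not examined. How far reads of the other genes were counted for the kinesins is therefore not known.

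*Kif20b* (chr19:34922335-34975750), a motor needed for the final cut of the midbody, was at 10.9, 16.2 and 23.4 CPM in WT and at 9.34, 12.3 and 9.27 CPM in *Il21r*-/- libraries. On day 14 its *Il21r*-/- level was 39.7% of WT, the widest gap of the 10 genes on any day. *Kif14* (chr1:136466301-136555938), which recruits citron kinase to the midbody, was at 13.4, 24 and 18 CPM in WT and at 12.5, 17.3 and 11.8 CPM in *Il21r*-/- libraries. Its WT library of day 7 lay below the *Il21r*-/- library of day 10, and its log2 fold change over 3 days was 0.41 ± 0.232 (SE, adjusted p = 0.359).

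Over 3 days, with genotype and a linear effect of day in edgeR's quasi-likelihood model, the log2 fold changes of the 10 genes were all positive, from 0.23 to 0.64 with a median of 0.44, beside a median of -0.01 over all 11005 genes tested. None of the 10 passed an adjusted p of 0.05 in this model, in which 154 genes were called higher in WT (1.4% of those tested). Before adjustment 7 of the 10 and 2356 of all genes had p under 0.05, and the DESeq2 Wald test of the same model called 5 of the 10, *Kif2c*, *Kif11*, *Kif20a*, *Kif20b* and *Kif22*, and 318 of all genes higher in WT (2.89%). The levels of a day deviated together in both genotypes, and day was therefore also fitted as a block. In that fit, 9 of the 10 were called higher in WT, against 1027 of all genes (9.33%), with adjusted p from 5.19e-05 for *Kif20a* to 0.0453 for *Kif20b*. *Kif18b* was not called in the blocked fit (adjusted p = 0.0616). With the libraries of day 7, 10 or 14 left out of it, 9, 3 and 2 of the 10 were called, beside 7.71, 5.84 and 3.13% of all genes tested. The 3 were *Kif20a*, *Kif22* and *Kif23*, and the 2 were *Kif20a* and *Kif22*. In the model without the block, leaving out the *Il21r*-/- library of day 10 raised the count from 0 to 6 (8.47% of all genes), and leaving out the WT library of day 7 raised it to 2, *Kif2c* and *Kif11* (1.06% of all genes).

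In 4 of the 10 genes, *Kif2c*, *Kif20a*, *Kif22* and *Kif23*, the lowest WT library lay above the highest *Il21r*-/- library, as in 917 of all genes tested (8.33%). On all 3 days the WT library was the higher one in all 10, against 25.4% of all genes tested. On day 7 the sign depended on the model for *Kif4*, *Kif14* and *Kif15*. With the linear day term kept, they turned to between -0.09 and -0.12 on the log2 scale. That held in edgeR and in the DESeq2 Wald test, which was fitted with this term too.

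By day, the median log2 fold change of the 10 genes was 0.14 on day 7, 0.46 on day 10 and 0.70 on day 14, beside medians of 0.00, -0.02 and -0.01 over all genes tested. On day 7 the likelihood ratio test called none of the 10 and 22 of all genes higher in WT (0.2%), and none of the 10 had an unadjusted p under 0.05, as against 606 of all genes in either direction. On day 10 it called none of the 10 and 55 of all genes higher in WT (0.5%). Its unadjusted p was under 0.05 for *Kif2c* and *Kif22*, and for 1190 of all genes in either direction. On day 14 it called 1 of the 10, *Kif20b* (log2 fold change 1.33 ± 0.399 SE, adjusted p = 0.0337), and 80 of all genes higher in WT (0.727%). Before adjustment 7 of the 10 and 1330 of all genes had p under 0.05 by this test on day 14. The DESeq2 Wald test was fitted with the linear day term and not with a mean for each day, so its model differed too. It called none of the 10 on any day, and 0.118, 0.236 and 0.182% of all genes higher in WT on days 7, 10 and 14. With dispersions from the blocked model 0, 2 and 7 of the 10 were called on these days, the 2 being *Kif2c* and *Kif22*, beside 0.754, 1.83 and 3.51% of all genes. Without the *Il21r*-/- library of day 10, 5 of the 10 and 2.24% of all genes were called higher in WT on day 14.

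**Figure D3:**
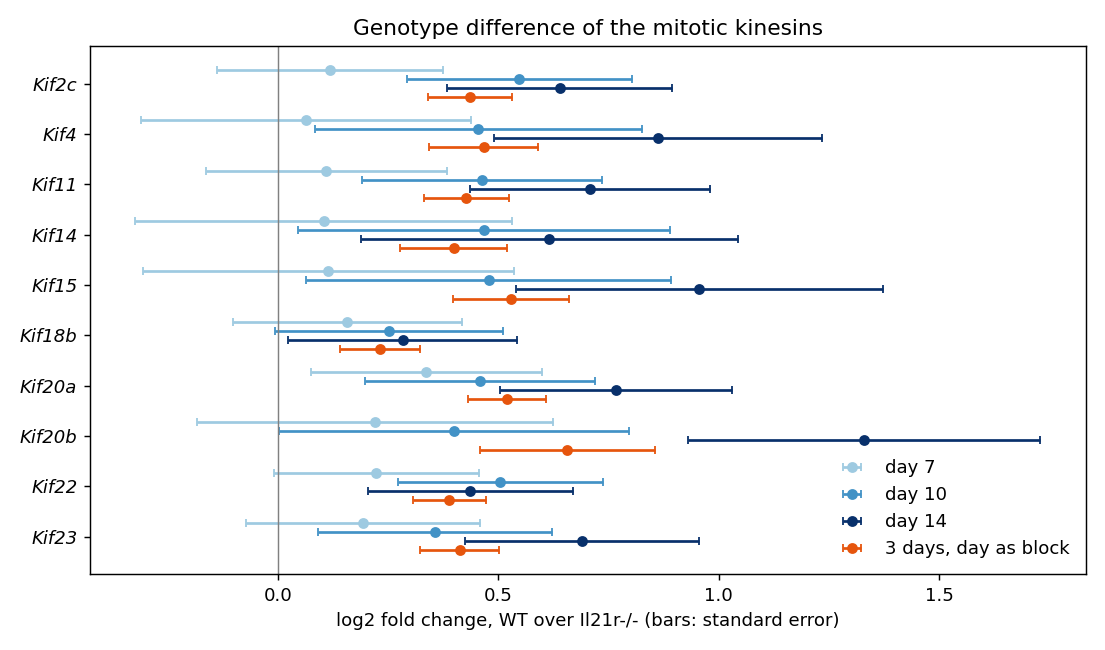
Points are the log2 fold change of WT over *Il21r*-/- of each mitotic kinesin gene (horizontal axis) on days 7, 10 and 14 and over 3 days with day as a block, and bars are the standard error of the fit. All points lie above 0; the day 14 value of *Kif20b*, 1.33, is the farthest out, and the values of *Kif18b* on the 3 days lie closest together.

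For 9 of the 10 genes the difference was wider on day 10 than on day 7 and wider again on day 14, the exception being *Kif22*, whose widest difference was on day 10. This order held for 1598 of the 11005 genes tested. The change of the genotype difference with day was positive for all 10, from 0.02 per day on the log2 scale for *Kif18b* to 0.16 for *Kif20b*. Tested directly as an interaction of genotype and day, it was called for none of the 10 and for no gene at all (0%) by edgeR's quasi-likelihood test or the DESeq2 Wald test; unadjusted p was under 0.05 for 118 genes by the former and 64 by the latter, among the 10 only for *Kif20b*. A widening difference is therefore a description of these libraries and did not pass a test. Without the WT library of day 7 or the *Il21r*-/- library of day 14, the interaction turned negative in 3 and 7 of the 10.

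Within a genotype, the 10 genes were higher on day 10 than on day 7, by 0.35 (*Kif23*) to 1.07 (*Kif15*) on the log2 scale in WT and by 0.04 (*Kif2c*) to 0.71 (*Kif15*) in *Il21r*-/-. Their medians were 0.50 and 0.27, beside 0.00 in both genotypes over all genes tested. Over the longest genes (4162 bases and over) the medians were 0.08 in WT and 0.28 in *Il21r*-/-. From day 10 to day 14 all 10 had lower values in *Il21r*-/-, by -0.11 (*Kif22*) to -0.56 (*Kif14*), with a median of -0.31 beside -0.06 over all genes and -0.35 over the longest genes (4162 bases and over). In WT 4 of the 10 were higher, led by *Kif20b* with 0.53, and the other 6 differed by -0.02 to -0.41, with a median of -0.03 over the 10, -0.03 over all genes and -0.12 over the longest genes. The linear trend over days, common to both genotypes, was between 0.00 and 0.11 per day on the log2 scale and was called for none of the 10, beside 488 of all genes (4.43%). *Kif15* had the steepest slope (0.11 ± 0.04 SE, adjusted p = 0.159). With day as a factor of 3 levels, in place of the line, 4 of the 10 were called, *Kif4*, *Kif14*, *Kif15* and *Kif18b*, a share near the 36.1% of all genes called by that test.

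Gene length moved with day in these libraries. Across the 11005 genes tested, the longest of 4 classes of equal gene number (4162 bases and over) was higher on day 10 than on day 7 in *Il21r*-/- by a median of 0.28 on the log2 scale and the shortest class (up to 1655 bases) differed by -0.18, whereas in WT the medians were 0.08 and -0.03. From day 10 to day 14 the same classes had medians of -0.35 and 0.32 in *Il21r*-/- and of -0.12 and 0.14 in WT. In the difference of WT minus *Il21r*-/-, the longest class had medians of 0.08, -0.12 and 0.08 on days 7, 10 and 14. The 10 genes are 2064 (*Kif22*) to 8770 (*Kif14*) bases long by the counted exons, and 5 of them, *Kif4*, *Kif11*, *Kif14*, *Kif15* and *Kif20b*, fell in the longest class. After the length trend of each library had been removed, the log2 fold changes over 3 days were 0.23 to 0.64, and 5 of the 10 were called (*Kif2c*, *Kif11*, *Kif20a*, *Kif22* and *Kif23*) beside 4.73% of all genes, or 9 beside 12.5% with day as a block. In that blocked fit *Kif18b* was called (adjusted p = 0.0351) and *Kif20b* was not (adjusted p = 0.0585). On day 14 the length-corrected test called *Kif20a*, *Kif20b* and *Kif23*, and 1.44% of all genes higher in WT.

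**Figure D4:**
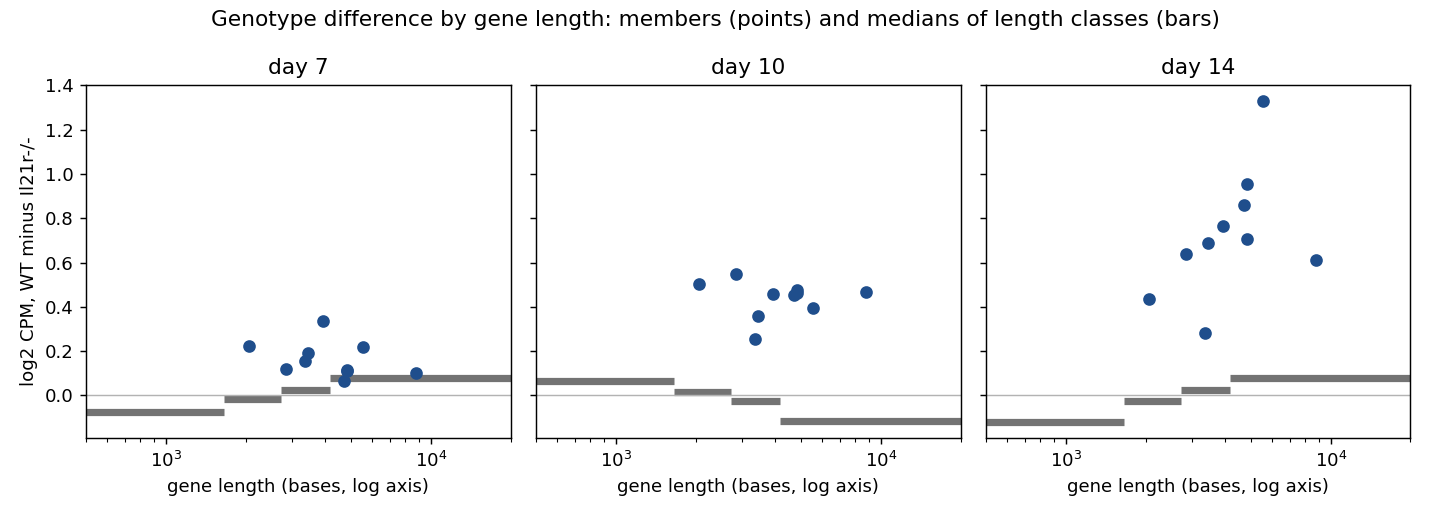
The horizontal axis is gene length in bases on a log scale, cut at 500 and 20000, and the vertical axis the difference in log2 CPM of WT minus *Il21r*-/- on days 7, 10 and 14; points are the 10 mitotic kinesins and grey bars the medians of the 4 length classes of all genes tested. The bars of the longest class sit at 0.08, -0.12 and 0.08, and on days 10 and 14 all points lie above the bars.

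The other kinesins of mitosis had like values. *Kif2b*, a depolymerase, had 0 counts in every library, and a level too low to be counted cannot be told apart from none. The kinetochore motor *Cenpe* was at 20.7, 50 and 67.6 CPM in WT and at 19.9, 38.2 and 32.1 CPM in *Il21r*-/- libraries, a log2 fold change of 0.50 ± 0.254 over 3 days (SE, adjusted p = 0.305, and 0.117 with the block). *Kif18a*, which damps chromosome oscillations, was at 32.3, 44 and 46.1 CPM in WT and at 33, 29.3 and 25.7 CPM in *Il21r*-/- libraries, and was the gene of these that was not higher in WT on day 7. The minus-end motor *Kifc1* and the depolymerase *Kif2a* had log2 fold changes of 0.34 ± 0.101 and 0.30 ± 0.143 (SE). None of the 4 tested genes was called without the block, and *Kifc1*, *Kif18a* and *Kif2a* were called higher in WT with it (adjusted p = 0.00308, 0.0422 and 0.0261).

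Kinesins that carry cargo showed no common direction. Of 26 transport and other kinesins with a row in the table, 12 were tested, 8 of these had a positive log2 fold change and the median was 0.05. None was called, and with the block 2 were called higher in WT, the cargo motor genes *Kif3b* and *Kif5b*, which were named after their values had been seen. *Kif21b*, a motor that pauses microtubule growth, had the lowest value (-0.30 ± 0.183) and the organelle motor *Kif1b* the highest (0.37 ± 0.229, SE; adjusted p = 0.387 and 0.402). With the block *Kif21b* was called lower in WT (adjusted p = 0.0451). Among 5 light chains and cargo subunits the median was -0.37, and *Klc4*, a light chain of kinesin-1, was called lower in WT (-0.67 ± 0.153 SE, adjusted p = 0.0396). With the block a second gene, *Kifap3*, an adaptor of kinesin-2 that was likewise named afterwards, was also called lower. Of the 15 tested subunits of dynein and dynactin, which drive transport to the minus end, none was called in either fit and the median was 0.00. Their extremes were *Dctn6* (-0.23 ± 0.111) and *Dynll2* (0.15 ± 0.111, SE; adjusted p = 0.283 and 0.478).

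Most genes that work with the mitotic kinesins had positive values too. All 16 spindle and midzone partners had a positive log2 fold change, with a median of 0.34, from *Mapre1*, which tracks growing microtubule ends (0.06 ± 0.091), to *Tpx2*, which activates Aurora A and binds *Kif11* and *Kif15* (0.49 ± 0.148, SE; adjusted p = 0.773 and 0.0998). None of the 16 was called without the block and 13 were called higher in WT with it, *Tpx2* among them (adjusted p = 0.000851). Of 11 tubulins tested, 8 had a positive value (median 0.26), and *Tubb3* (0.98 ± 0.183) and *Tuba1a* (0.58 ± 0.119, SE; adjusted p = 0.0173 and 0.0262) were called higher in WT; with the block 7 were called, all higher. The list of regulators of G2/M transcription held subunits and partners of the complexes that bind the CHR, and subunits of NF-Y. Its 11 genes had a median of 0.14. They ran from the MuvB subunit *Lin37* (0.01 ± 0.117) to *Mybl2*, which encodes B-MYB (0.47 ± 0.174, SE; adjusted p = 0.961 and 0.161). With the block 2 of the 11 were called higher in WT, *Mybl2* (adjusted p = 0.000583) and, named after its value had been seen, *Lin54*, the MuvB subunit that binds the CHR.

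**Figure D5:**
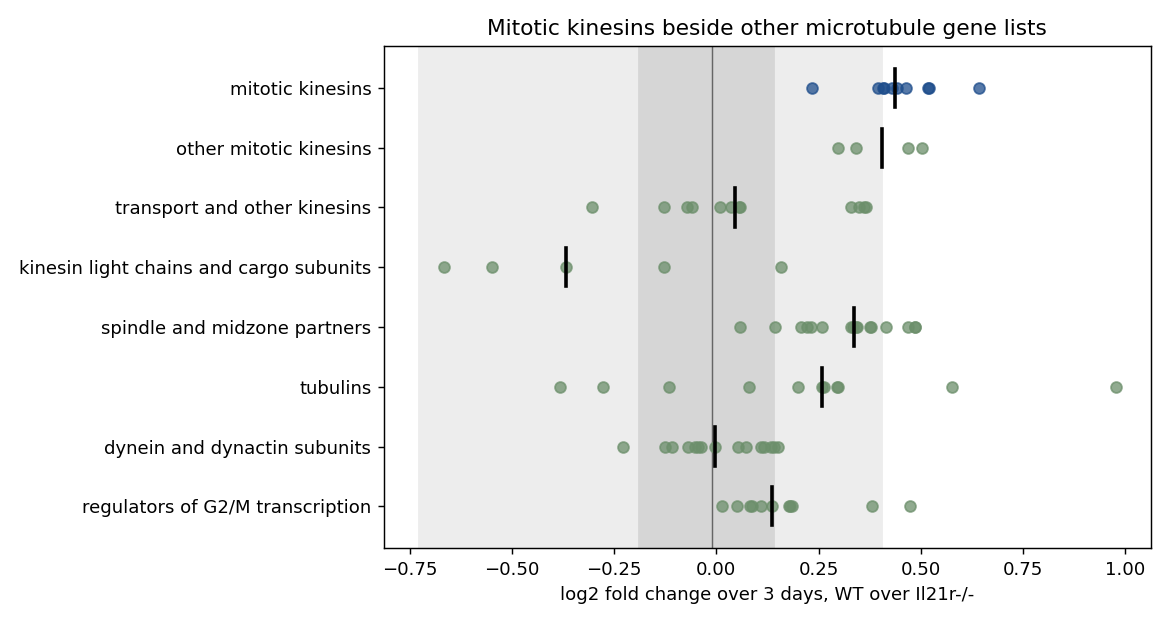
Points are single genes of each list, placed by their log2 fold change of WT over *Il21r*-/- over 3 days (horizontal axis), black bars are list medians, and the dark and light grey bands hold the middle 50 and 90% of all genes tested, around a grey line at their median. The mitotic kinesins have a median of 0.44 and all lie to the right of the dark band, which ends at 0.14; dynein and dynactin subunits center on 0.00.

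The 10 genes followed each other closely. Over the 6 libraries, the log2 CPM of each had a Pearson r of 0.897 (*Kif15*) to 0.991 (*Kif11*) with the mean of the other 9, and the 45 pairs had r from 0.754 (*Kif14* with *Kif20b*) to 0.986, with a median of 0.902. The points share libraries, days and depth, so these values are a description. The same holds for the genotype differences of the genes named next for their likeness, since a course like that of the 10 fixes a difference like theirs. Outside the 10, genes whose log2 CPM was most like their mean course included *Top2a* (r = 0.9968), *Odf2* (0.9947), *Sgo2a* (0.9937), *Blm* (0.9935), *Knl1* (0.993), *Tpx2* (0.9926), *Usp1* (0.9923), *Slf1* (0.9918) and *Wbp4* (0.9917). *Sgo2a* and *Knl1* act at centromeres and kinetochores, and *Top2a* untangles sister chromatids. *Top2a* was at 296, 477 and 442 CPM in WT and at 251, 332 and 262 CPM in *Il21r*-/- libraries, with a log2 fold change of 0.51 ± 0.173 over 3 days (SE). Their log2 fold changes ran from 0.15 for *Wbp4* to 0.86 for *Knl1*. *Mki67*, the textbook marker of cycling cells, was at 106, 302 and 396 CPM in WT and at 98.8, 263 and 190 CPM in *Il21r*-/- libraries, and was called in neither fit (0.41 ± 0.321 and 0.46 ± 0.275, SE; adjusted p = 0.511 and 0.397).

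Genes of resting B cells and plasma cells also differed between the genotypes, and their part in the kinesin values was not tested. The summed level of 6 naive B cell genes was 427 to 925 CPM in WT and 764 to 1180 CPM in *Il21r*-/- libraries. *Fcer2a* and *Ccr7* were called lower in WT (log2 fold change -1.54 ± 0.15 and -1.81 ± 0.226 SE, adjusted p = 0.00119 and 0.00322), whereas *Ighm* was called higher (0.48 ± 0.115 SE, adjusted p = 0.0457). *Ighd*, the gene that defines naive cells, was at 0.983 to 1.68 CPM in all libraries. Plasma cell genes summed to 2520 to 2740 CPM in WT and 2770 to 3620 CPM in *Il21r*-/- libraries. Most of each sum was *Jchain*, which alone was at 2280 to 3310 CPM across the libraries. *Sdc1* was under 1 CPM throughout, *Prdm1* was called higher in WT (1.64 ± 0.333 SE, adjusted p = 0.0216) and *Xbp1* was called lower (-0.39 ± 0.0888 SE, adjusted p = 0.0396). Of the myeloid genes *Cd68* was called lower in WT (-0.62 ± 0.147 SE, adjusted p = 0.0449). The erythroid genes *Hba-a2* and *Hbb-bs* had values of -0.48 ± 0.547 and -0.16 ± 0.484 (SE, adjusted p = 0.667 and 0.89).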

How the data were processed

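Single-end reads of 100 bases had been aligned to mm10 (Rsubread) and assigned to the RefSeq genes built into featureCounts, with technical replicates pooled. The authors deposited the counts as whole numbers without normalization. Strand and multi-mapping settings are not given in the sources used here. Genes were named from RefSeq GRCm38.p6 by Entrez identifier (25275 of 27179), and 18 more from GENCODE; the 1886 without a symbol took 1.57 to 2.24% of each library's counts. Groups came from the genotype labels.

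Tests left out genes with an average log2 CPM under 0, as well as Ig variable genes, *Xist* and genes of the Y chromosome, and used TMM scaling (R 4.3.3, edgeR 4.0.16, limma 3.58.1). Dispersions came from genotype plus linear day (common dispersion 0.017, 3 residual degrees of freedom). For the interaction and for day as a block they came from the fitted model itself, with 2 residual degrees of freedom each. The genotype effect over 3 days, the day trend and their interaction were tested by quasi-likelihood, and the effect of each day by the likelihood ratio, with 1 mean for each day. Adjustment was by Benjamini-Hochberg across all 11005 genes tested, and a gene was called at an adjusted p under 0.05. CPM and RPKM were computed with TMM factors. Errors cover the spread between these libraries only.

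Libraries of the same day had like deviations from the genotype means. These correlated across 11005 genes with r = 0.64, 0.413 and 0.645 on days 7, 10 and 14. A fit with day as a block is therefore given beside the main one. No label names a pair or a batch, so an effect of day and one of pairing cannot be told apart. The alternatives were DESeq2 1.42.0, other filters and scalings, each library left out, and, added after the data had been seen, a length correction (lowess, span 0.3) and each day left out of the blocked fit. The functions were tested on simulated data. The members and lists were chosen with earlier results of these data known. Genes named were the 10 members, 5 other mitotic kinesins, in each other list the genes called over 3 days (at most 4) or else the lowest and highest, the 10 genes most like the members, *Il21r*, *Mki67* and *Top2a*; some genes that this rule names are not reported here.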

Additional observations from a re-analysis of the deposited data

How the results depend on the processing

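All 160 values of the 10 genes over 3 days under 16 alternatives were positive (0.126 to 0.879), as were 80 of 80 in the blocked fit, 120 of 120 on each of days 10 and 14, and 113 of 120 on day 7. These are refits of the same libraries for genes that move together, and not independent values. With a mean for each day, a day's value rests on that day's 2 libraries only, so leaving out other libraries could hardly change it. With 1 library per genotype and day, calls depended on the error model, and the cause was not tested. Of the 10 genes, 0 were called over 3 days without the replicate block and 9 with it, also with the block and length correction; 1 was called with DESeq2's size factors, 3 without a filter, 5 by the DESeq2 Wald test, 3 by the likelihood ratio test, 5 with length correction, and 0 to 6 without single libraries. In the blocked fit 3 were called without day 10 and 2 without day 14. On day 10 the count of 0 became 2 with the linear day term kept or with day as a block in the dispersion. On day 14 the count of 1 became 0 with the left-out genes kept, or with the linear term by edgeR or DESeq2. It became 7 with the block, 3 with length correction, and 1 to 5 without single libraries. In the day trend the count of 0 became 1 with DESeq2 or length correction and 4 with day as a factor. Shares of all genes are not reported here for the likelihood ratio test over 3 days or the linear term on day 10. The same holds for the day trend by DESeq2 or with length correction, and for other fits without single libraries. Those counts therefore do not set the 10 genes apart from the rest.

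On day 7, with the linear term, *Kif4*, *Kif14* and *Kif15* turned to -0.092, -0.094 and -0.0922 by DESeq2 and to -0.113, -0.115 and -0.114 by edgeR. *Kif14* turned to -0.0314 with length correction. *Kif23* had a day slope of -0.000255 without a filter, and *Hbb-bs* a value of 0.0646 over 3 days with the block and length correction. Leaving out single libraries turned further values, given here with their lowest and highest. The day slope turned in *Kif2c* (-0.00993 to 0.0502), *Kif11* (-0.0054 to 0.0707), *Kif14* (-0.042 to 0.0669), *Kif18b* (-0.00454 to 0.0368), *Kif20a* (-0.0158 to 0.0485), *Kif22* (-0.0107 to 0.0275) and *Kif23* (-0.0303 to 0.0392), each without WT day 7, and *Kif23* also without WT day 14. The interaction turned in *Kif4* (-0.0226 to 0.277), *Kif14* (-0.0968 to 0.3), *Kif15* (-0.0548 to 0.306), *Kif18b* (-0.0632 to 0.124), *Kif20a* (-0.0275 to 0.142), *Kif22* (-0.0356 to 0.133) and *Kif23* (-0.0146 to 0.153), each without *Il21r*-/- day 14, and *Kif14*, *Kif18b* and *Kif22* also without WT day 7. Over 3 days the values of *Lin37* (-0.0587 to 0.121), *Hba-a2* (-0.974 to 0.232) and *Hbb-bs* (-0.617 to 0.515) turned.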
